A study of Mus musculus with 7 samples.

Results

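The histone cluster genes encode the linker histone H1 and the core histones H2A, H2B, H3 and H4, and are named Hist1 to Hist4 after the gene clusters they lie in. Their level was examined in RNA-Seq of mouse knee tissue. A gene was taken as a member when the GENCODE M21 symbol of its deposited gene ID began with Hist1h, Hist2h, Hist3h or Hist4h, which gave 70 genes of the 55401 in the count table. The table itself mixes older and newer symbols: 9 of the 70 carry a Hist symbol there, 57 a newer one such as H2ac11, and 4 neither pattern (H2bu2, H2bu1-ps, H2aw and H4f16). A further 6 rows with newer histone symbols have no Hist symbol in GENCODE M21 and were not counted as members, whatever their position. Among them, the pseudogene H2ac5-ps lies within the Hist1 stretch of chromosome 13 (23746166 to 23746499). Genes are called here by the deposited symbol, with the older one beside it where a gene is described.

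The samples were knees of male C57BL/6J mice, 4 from wild type (WT) and 3 from Trpc1-/- animals. All mice had undergone destabilisation of the medial meniscus (DMM), an operation that induces osteoarthritis, at 10 weeks of age, and tissue was taken 2 weeks later, so both groups carried the injury and no unoperated knee was compared. Each sample pooled several animals, and the study's methods list subchondral bone beside the articular cartilage. Trpc1-/- mice lack the calcium channel TRPC1 in every tissue, not in chondrocytes alone. Ribosomal RNA was depleted and total RNA sequenced, with no selection for poly(A) tails.

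In a dividing cell, newly made DNA has to be wrapped around nucleosomes, in which H2A, H2B, H3 and H4 form the core and H1 binds the linker DNA. The genes of the clusters supply these proteins during S phase. Their mRNAs are unusual in that most end not in a poly(A) tail but in a conserved stem-loop, which the protein SLBP binds, and these mRNAs are degraded when DNA synthesis stops. Libraries made by poly(A) selection therefore largely miss them, whereas libraries from total RNA retain them. Articular chondrocytes of the adult divide rarely, while the marrow within subchondral bone is rich in dividing blood precursors.

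The members comprised 6 H1, 20 H2A, 19 H2B, 12 H3 and 13 H4 genes. In GRCm38 coordinates, 55 of the 56 Hist1 genes lay on chromosome 13 between positions 21715763 and 23934851, a stretch of 2219.1 kb, in 4 groups, and the remaining one, Hist1h2al, lay at 51202727 to 51203065. The 10 Hist2 genes lay on chromosome 3 (96219865 to 96270132), the 3 Hist3 genes on chromosome 11 (58948920 to 58956830), and the single Hist4 gene, H4f16, on chromosome 6 (136801553 to 136804415). Of the 70 genes, 67 are annotated as protein coding and 3 as pseudogenes (H2ac14, H2bu1-ps and Hist1h2al). Many of the genes resemble each other closely, and some overlap another annotated gene. Of the 75-base windows along a member's longest transcript, 75 bases being the read length, a median of 42.2% also occurred in another annotated gene, 29 members shared at least 50% of their windows and 6 shared none. The median shared share was 0.75% in H1, 68.0% in H2A, 41.1% in H2B, 59.0% in H3 and 24.6% in H4. Counts of single H2A and H3 genes in particular therefore depend on how reads were divided among copies, whereas sums over a class depend on it less. Windows are also shared where gene models overlap, which can cross classes, as between H1f4 and H2bc6.

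The stem-loop was looked for first, because it is the feature that sets these mRNAs apart. The search took 16 bases on the sense strand beyond the stop codon that read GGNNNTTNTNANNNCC, with 6 paired positions in the stem. Such a stem-loop was present in the annotated transcripts of 46 of the 67 protein-coding members (68.7%), between 21 and 58 bases after the stop codon (median 31), and in 37 of 21884 other protein-coding genes (0.17%). Only 8 different sequences made up the 46, and they are shown because they separate H4 from the other classes. Capitals mark the stem and lower case the loop, and each is written 5′ to 3′ as DNA, from the GENCODE transcripts.
H1, H2A, H2B and H3 (26 genes, among them H1f2, H2aw, H2bu2 and H3c14): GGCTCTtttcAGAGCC
H1, H2B and H3 (6 genes, among them H2bc3 and H3c7): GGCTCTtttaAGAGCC
H2A (1 gene, H2ac20): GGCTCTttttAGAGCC
H3 (1 gene, H3c8): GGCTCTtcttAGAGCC
H4 (7 genes, among them H4c4, H4c6, H4c8 and H4f16): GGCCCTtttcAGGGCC
H4 (2 genes, H4c9 and H4c14): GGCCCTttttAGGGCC
H4 (2 genes, H4c2 and H4c11): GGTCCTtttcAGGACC
H4 (1 gene, H4c1): GGCCCTtctcAGGGCC

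None of the stems found in H4 occurred in another class, and every stem-loop of H1, H2A, H2B and H3 shared 1 stem. Of the 21 protein-coding members without a match, 15 had annotated transcripts that end within 2 bases of the stop codon, so that the place where a stem-loop would lie is not part of the gene model. The exceptions with long annotated ends were H2bc21 with 2192 bases beyond the stop codon, Hist1h2br with 1803, Hist1h2bq with 1608 and H2bc4 with 742. In the other direction, 18 members with a stem-loop had models that ran more than 300 bases past it, as in H4f16, which adds length over which a level per kb is diluted.

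Promoter sequences, from 250 bases before to 50 bases after the start, were available from RefSeq (GRCm38.p6) for 54 members by symbol. The 16 without one were H2ac14, H2bc21, H2bc4, H2bu1-ps, H3c1, H3c7, H4c14, Hist1h2al, Hist1h2an, Hist1h2ao, Hist1h2ap, Hist1h2bp, Hist1h2bq, Hist1h2br, Hist1h4m and Hist1h4n. Motifs were searched on both strands. CCAAT was present in 87.0% of the 54 against 41.0% of 26971 other genes, in all H1, H2A, H2B and H3 promoters but in 3 of 10 H4 promoters. TATAAA was present in 57.4% against 15.6%. ATTTGCAT, the octamer bound by POU-domain factors, was present in 25.9% against 1.92%, with 7 of 15 in H2A, 7 of 13 in H2B and 0 in H1, H3 and H4. TTTNNCGC was present in 24.1% against 5.89%. Where 2 genes start close together on opposite strands, their windows can overlap, and a motif there counts for both. The octamer of H2ac12 and H2bc12 is an example, so the shares do not rest on independent stretches of DNA. The promoters below are shown for a divergent pair in which the genes behaved differently (H2ac20), for the one of the Hist3 genes called by DESeq2 that has a RefSeq promoter (H2aw), and for an abundant H4 gene that holds none of the motifs (H4c8). Capitals mark the motifs, on either strand.
H2ac20, chr3:96220831-96221130, minus strand: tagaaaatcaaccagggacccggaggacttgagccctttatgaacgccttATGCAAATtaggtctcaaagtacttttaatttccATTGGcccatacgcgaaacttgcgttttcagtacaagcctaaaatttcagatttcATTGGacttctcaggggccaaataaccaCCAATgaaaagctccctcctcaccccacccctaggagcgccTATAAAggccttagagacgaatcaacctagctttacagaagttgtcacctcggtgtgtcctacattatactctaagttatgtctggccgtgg
H2aw, chr11:58954435-58954734, plus strand: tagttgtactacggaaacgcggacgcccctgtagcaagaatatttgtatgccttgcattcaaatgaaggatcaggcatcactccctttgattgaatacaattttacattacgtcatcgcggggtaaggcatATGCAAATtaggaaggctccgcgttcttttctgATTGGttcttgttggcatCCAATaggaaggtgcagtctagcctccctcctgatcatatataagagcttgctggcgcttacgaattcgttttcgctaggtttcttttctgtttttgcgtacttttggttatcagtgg
H4c8, chr13:23530794-23531093, plus strand: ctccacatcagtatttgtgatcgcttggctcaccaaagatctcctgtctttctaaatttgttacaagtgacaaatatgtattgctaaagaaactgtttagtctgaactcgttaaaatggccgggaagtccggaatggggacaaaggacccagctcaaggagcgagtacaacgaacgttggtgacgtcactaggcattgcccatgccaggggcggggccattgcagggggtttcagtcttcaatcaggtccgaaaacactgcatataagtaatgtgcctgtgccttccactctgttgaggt

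The 7 libraries held between 52142451 and 118254070 counts on genes, and WT replicate 1 was the smallest. That sample stood apart from the other WT samples in several ways. Mitochondrial genes took 22.5% of its counts and between 14.2% and 17.6% in the others. Most of these counts were on the mitochondrial ribosomal RNA mt-Rnr2, at 19.6% of all counts in WT replicate 1 and 12.3% to 15.4% in the others. The osteoblast markers fixed for this work summed to 13460 CPM there, above the 5729 to 9988 CPM of all other samples, and the 5 markers of mature neutrophils to 4726 CPM, below the 11440 to 15487 CPM of the others. The tissue label was checked in the same way. Chondrocyte markers were present in every sample, with Col2a1, the main cartilage collagen, between 1449 and 3292 CPM, but so were erythroid genes, with Hbb-bs between 6082 and 20342 CPM. Here and throughout, CPM are counts scaled to a common library size, with edgeR's TMM method setting the size. The targeted gene Trpc1 was at 4.82, 4.54, 4.76 and 4.32 CPM in WT replicates 1 to 4 and at 3.34, 3.78 and 3.03 CPM in Trpc1-/- replicates 1 to 3, and its log2 fold change (logFC) was −0.44 (SE 0.13, edgeR adjusted p = 0.407, from the quasi-likelihood test). These counts cover the whole gene, not the deleted part.

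Histone cluster transcripts were abundant in this tissue. They took 0.613%, 1.41%, 1.58% and 1.36% of all counts in WT replicates 1 to 4 and 1.82%, 1.47% and 1.77% in Trpc1-/- replicates 1 to 3. On the CPM scale, the 70 genes summed to 6717, 13281, 14981 and 12972 CPM in the WT samples, a mean of 11988 ± 3623 CPM (SD, n = 4). In the Trpc1-/- samples they summed to 17498, 14990 and 19181 CPM, a mean of 17223 ± 2109 CPM (SD, n = 3), which is 1.44-fold the WT mean. On this TMM-scaled measure all 3 Trpc1-/- samples lay above all 4 WT samples, but WT replicate 3 and Trpc1-/- replicate 2 were almost level. With the overlapping gene Gm20634 added the groups overlapped, at 15444 and 15398 CPM. As a share of all counts they overlapped without it, at 1.58% in WT replicate 3 and 1.47% in Trpc1-/- replicate 2. WT replicate 1 was at 48.9% of the mean of the other WT samples. Without it the WT mean was 13745 ± 1082 CPM (SD, n = 3) and the ratio 1.25-fold. In bulk tissue, a larger share of dividing cells and more histone mRNA per cell cannot be told apart.

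Every class had the same order of groups. H1, the linker histone, summed to 1363.4, 2392, 2664 and 2331 CPM in WT and to 3216, 2729 and 3208 CPM in Trpc1-/- samples, a ratio of the means of 1.39. H2A summed to 1122, 2460, 2615 and 2261 CPM against 3222, 2513 and 3239 CPM, a ratio of 1.41. H2B, its partner in the nucleosome, summed to 1505, 3149, 3658 and 3082 CPM against 4284, 3506 and 4666 CPM, a ratio of 1.46. In H2A and H2B, Trpc1-/- replicate 2 lay below WT replicate 3, so the groups overlapped. H3 summed to 1123, 2322, 2602 and 2216 CPM against 3107, 2578 and 3231 CPM, with a ratio of 1.44 and the same overlap. H4 summed to 1603, 2959, 3443 and 3083 CPM against 3669, 3664 and 4838 CPM, a ratio of 1.46 with no overlap. Without WT replicate 1 the ratios lay between 1.22 for H2A and 1.28 for H4.

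**Figure D1:**
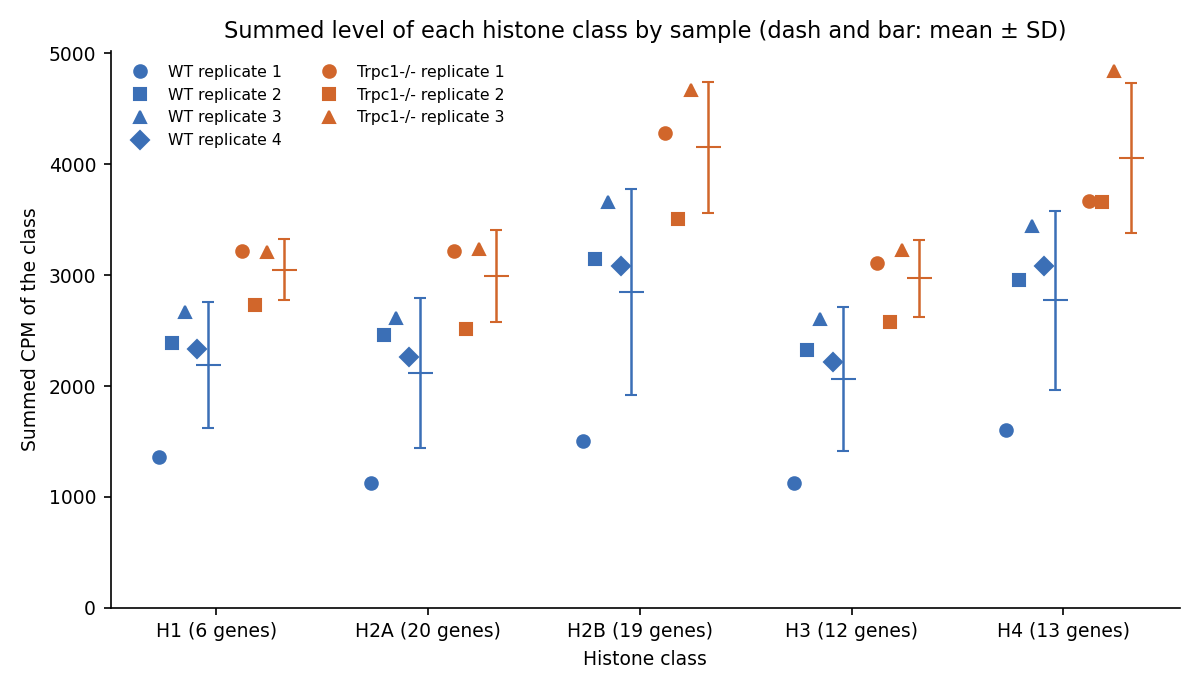
Summed CPM (y axis, from 0) of the members of each histone class (x axis) in each WT (blue) and Trpc1-/- (orange) sample, with the marker shape giving the replicate and the dash and bar the mean ± SD. In all 5 classes WT replicate 1 is lowest, between 45.7% and 55.4% of the mean of the other WT samples, and Trpc1-/- replicate 2 lies close to WT replicate 3, below it in H2A, H2B and H3.

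The make-up of the histone pool changed little between samples. H2A held between 16.7% and 18.5% of the members' counts, H2B between 22.4% and 24.5%, and H3 between 16.7% and 17.8%. H1 held between 16.7% and 20.3%, with the highest share in WT replicate 1. H4 held 21% in Trpc1-/- replicate 1, its lowest share, and between 22.3% and 25.2% in the other samples. Trpc1-/- replicate 1 reached the level of replicate 3 in H1 and H2A but that of replicate 2 in H4, so the classes did not move entirely as one within a genotype. An example is H4c14 (Hist2h4), the H4 gene of the Hist2 cluster, at 136 CPM in Trpc1-/- replicate 1, the same as in WT replicate 4, but at 174 and 233 CPM in Trpc1-/- replicates 2 and 3.

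Single genes were tested next. Of the 70 members, 68 passed the filter on low counts (more than 1 CPM in at least 2 samples), and 2 testis genes did not. In edgeR, 0 of the 68 were called at an adjusted p under 0.05, with adjusted p between 0.395 and 0.933, and over all 16429 tested genes the percentage called was also 0. At an unadjusted p under 0.05, 16 of the 68 were higher in Trpc1-/- samples, against 4.51% of all tested genes, and 0 were lower, against 5.49%. The logFC was above 0 in 66 of 68 members and in 48.1% of all tested genes. The median logFC of the tested members was 0.53, with quartiles of 0.49 and 0.59, against −0.01 over all tested genes. In 23 members the Trpc1-/- samples all lay above the WT samples, which held for 7.15% of all tested genes, and in 0 members did they all lie below, against 6.42%. DESeq2, the tool of the study's methods, called 2 members higher, H2aw and H2bu1-ps, and 0.962% of all tested genes.

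How many members passed the unadjusted threshold depended on single samples. The 16 became 52 without WT replicate 1 (51 higher, against 8.48% of all tested genes, and H2ac18 lower) and 42 without WT replicate 3 (41 higher, against 4.61%). They became 6, all higher, without WT replicate 2 (against 2.99%), WT replicate 4 (3.52%) or Trpc1-/- replicate 1 (2.36%), 13 without Trpc1-/- replicate 2 (3.91%) and 4 without Trpc1-/- replicate 3 (2.18%). Without WT replicate 1 the median logFC fell to 0.34, while edgeR called 49 genes in all but 0 members, and DESeq2 called 26 members higher against 3.17% of all tested genes. The labels number the libraries of WT replicates 3 and 4 in the 1700s and all others in the 1300s. The 1300s alone gave a median logFC of 0.82, but their only WT samples are WT replicates 1 and 2. That fit therefore leans on WT replicate 1, the sample with the lowest histone sum. The 1700s hold no Trpc1-/- sample.

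**Figure D2:**
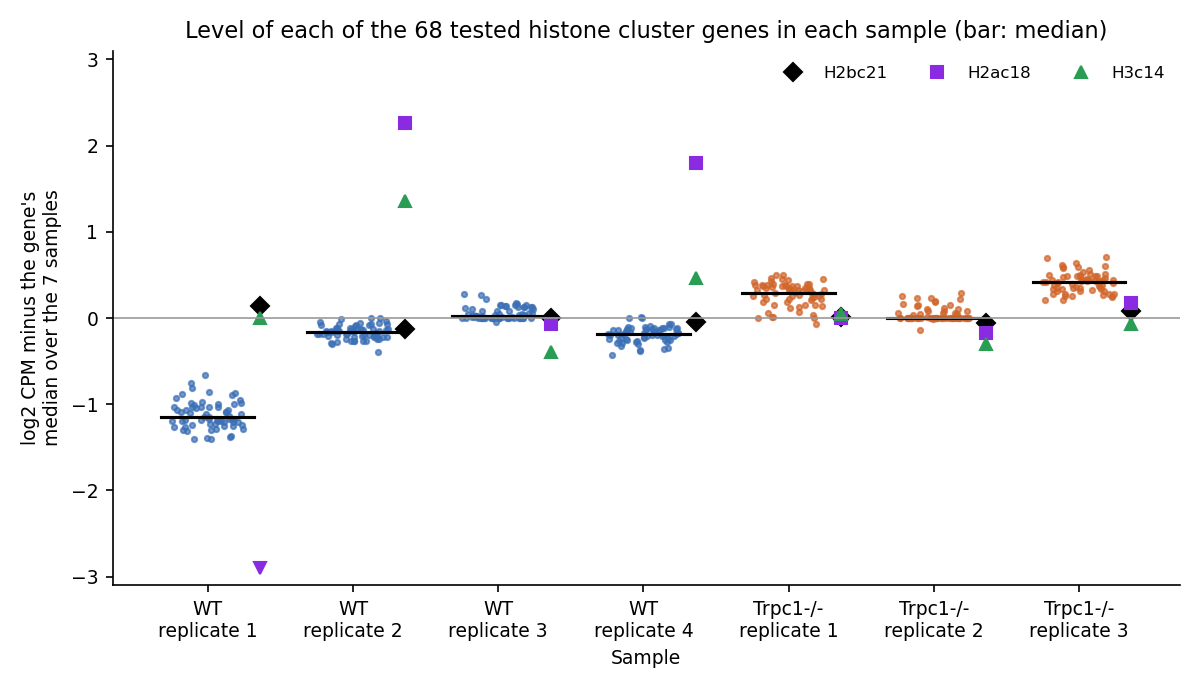
Level of each of the 68 tested members in each sample (x axis), as log2 CPM minus the gene's median over the 7 samples (y axis), with WT in blue, Trpc1-/- in orange and a bar at the sample's median. WT replicate 1 lies below 0 for nearly all members while H2bc21 does not follow, and H2ac18 and H3c14 scatter across the WT samples (H2ac18 in WT replicate 1, at 0.021 CPM, is drawn as a downward triangle at the lower edge).

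WT replicate 1 had the lowest level of all 7 samples in 66 of the 68 tested members. Trpc1-/- replicate 3 had the highest in 51 and Trpc1-/- replicate 1 in 14. The tested members thus moved largely together from sample to sample, with H2bc21, H2ac18 and H3c14 as the clearest departures.

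Among the H1 genes, H1f1 (Hist1h1a), which shares no 75-base window with another gene, was at 233, 375, 420 and 360 CPM in WT and at 536, 482 and 591 CPM in Trpc1-/- samples. Its groups did not overlap, and its logFC of 0.63 (SE 0.20, edgeR adjusted p = 0.416) was the highest of the class. H1f2 (Hist1h1c), the most abundant H1 gene here, was at 396, 711, 781 and 689 CPM against 946, 827 and 924 CPM, again without overlap. H1f3 (Hist1h1d) overlapped, since Trpc1-/- replicate 2 at 548 CPM lay below WT replicate 3 at 553 CPM. H1f4 (Hist1h1e) had the smallest logFC of the class, 0.35 (SE 0.24, edgeR adjusted p = 0.604), with WT replicates at 265 to 560 CPM and Trpc1-/- samples at 513 to 612 CPM. Its model overlaps that of the H2B gene H2bc6 on the same strand, and 22.7% of its windows are shared with H2bc6. H1f6 (Hist1h1t), the linker histone of spermatocytes, stayed between 0.231 and 0.847 CPM and was not tested.

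In the H2A class, H2ac19 (Hist2h2aa2), H2ac11 (Hist1h2ag) and H2ac15 (Hist1h2ak) had the highest mean CPM. H2ac19 was at 140, 288, 338 and 268 CPM in WT and at 411, 290 and 405 CPM in Trpc1-/- samples, so that Trpc1-/- replicate 2 fell among the WT samples. All of its windows are shared with other genes, so its own level is uncertain. The H2A genes with the smallest p outside Hist3 were H2ac10 (Hist1h2af) and H2ac7 (Hist1h2ad). H2ac7 was at 54.8, 98.4, 112 and 92.2 CPM against 154, 120 and 147 CPM, without overlap, with a logFC of 0.65 (SE 0.23, edgeR adjusted p = 0.450). H2ac10 had a logFC of 0.64 (SE 0.22, edgeR adjusted p = 0.442), and H2ac8 (Hist1h2ae) of 0.59 (SE 0.24, edgeR adjusted p = 0.483). H2ac21 (Hist2h2ab) was a low member at 7.97, 20.1, 21 and 21 CPM against 23.4, 19.0 and 25.4 CPM, where only WT replicate 1 was clearly lower than the rest.

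In the H2B class, H2bc18 (Hist2h2bb), H2bc3 (Hist1h2bb) and H2bc15 (Hist1h2bn) had the highest mean CPM. H2bc3 was at 160, 315, 362 and 316 CPM in WT and at 454, 376 and 493 CPM in Trpc1-/- samples, without overlap, with a logFC of 0.61 (SE 0.26, edgeR adjusted p = 0.498). H2bc18 was at 176, 309, 359 and 334 CPM against 391, 409 and 509 CPM, also without overlap. It lies within the span of the long noncoding RNA gene Gm42743 on the same strand, and 49.8% of its windows are shared with that gene. H2bc15 was at 146, 329, 376 and 305 CPM against 472, 345 and 470 CPM, and its groups overlapped.

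In the H3 class, H3c7 (Hist1h3f) was highest in mean CPM, at 160, 365, 418 and 351 CPM in WT and at 483, 429 and 527 CPM in Trpc1-/- samples, without overlap. H3c2 (Hist1h3b), a gene recurrently mutated in childhood brainstem tumours in its human form, was at 119, 271, 306 and 253 CPM against 375, 318 and 401 CPM, again without overlap. H3c3 (Hist1h3c) overlapped by a small margin, with WT replicate 3 at 312 CPM and Trpc1-/- replicate 2 at 311 CPM. The highest logFC of the class were 0.64 in H3c10 (Hist1h3h, SE 0.26) and 0.64 in H3c4 (Hist1h3d, SE 0.26), both at an edgeR adjusted p of 0.482.

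In the H4 class, in which the genes encode essentially the same protein, H4c4 (Hist1h4d) was highest in mean CPM, at 234, 471, 536 and 471 CPM in WT and at 640, 559 and 716 CPM in Trpc1-/- samples. H4c8 (Hist1h4h), whose promoter is shown above, was at 191, 383, 439 and 398 CPM against 489, 487 and 617 CPM. H4c6 (Hist1h4f) was at 188, 327, 375 and 345 CPM against 394, 406 and 535 CPM. None of the 3 overlapped between the groups. Their logFC were 0.58 (SE 0.26), 0.59 (SE 0.27) and 0.53 (SE 0.24), with adjusted p of 0.509, 0.508 and 0.508 in edgeR. H4c9 (Hist1h4i) had the smallest p of the class, at 49.2, 77.5, 91.4 and 77.0 CPM against 94.0, 98.2 and 124 CPM, with an adjusted p of 0.479. The logFC of all 13 H4 genes lay between 0.49 and 0.59, the narrowest range of the core histone classes.

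**Figure D3:**
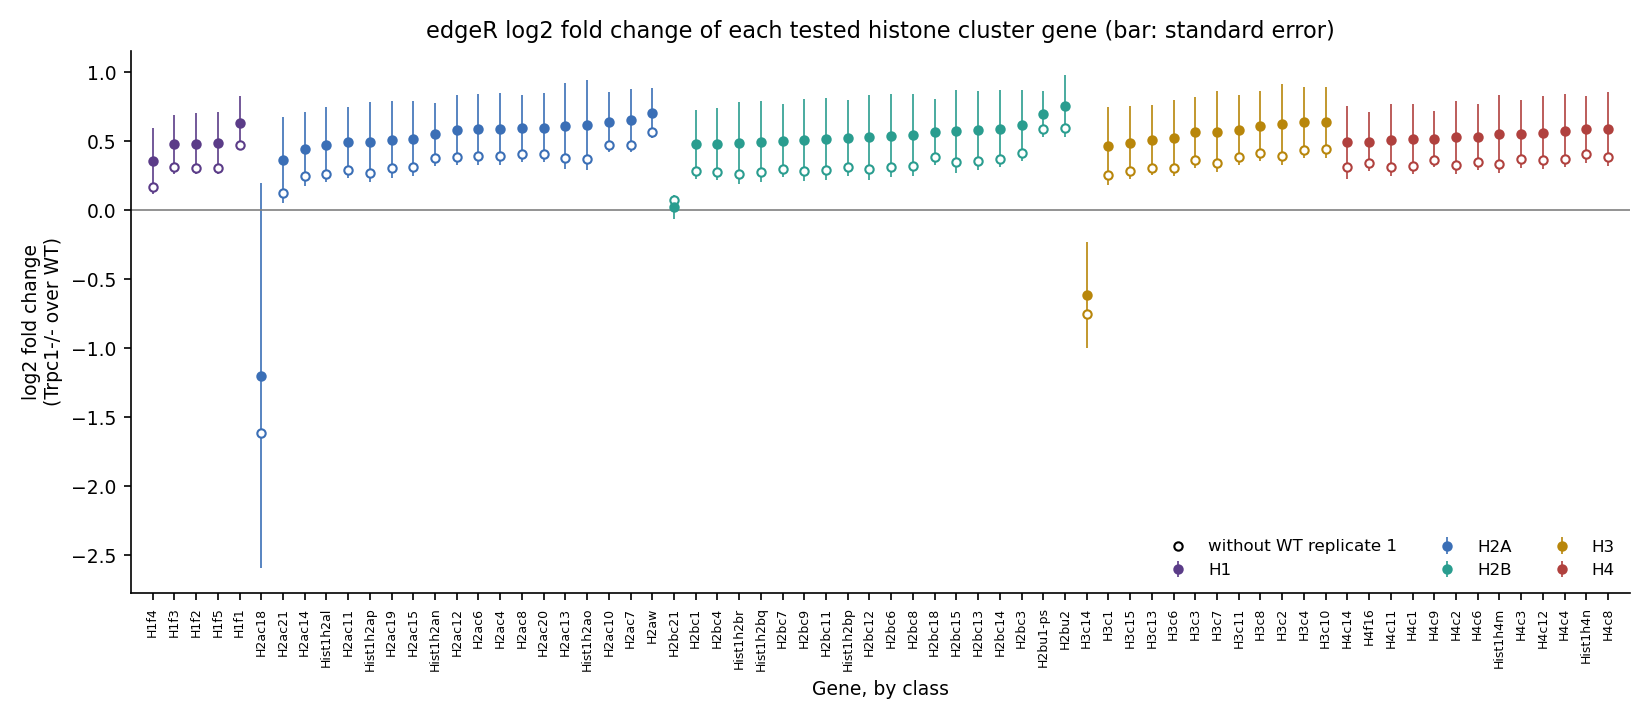
edgeR log2 fold change (y axis, Trpc1-/- over WT) of each of the 68 tested members (x axis, by class), with the standard error as a bar and open circles for the fit without WT replicate 1. Members lie between 0.35 and 0.75 apart from H2bc21 at 0.02, H3c14 at −0.61 and H2ac18 at −1.20, and open circles lie below the filled ones in all but H2bc21.

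The 3 genes of the Hist3 cluster had the highest logFC of all members. H2bu2 (Hist3h2ba) was at 20.1, 36.2, 38.4 and 28.6 CPM in WT and at 48.2, 45.7 and 62.5 CPM in Trpc1-/- samples, with a logFC of 0.75 (SE 0.22) and an adjusted p of 0.407 in edgeR and 0.0591 in DESeq2. H2aw (Hist3h2a) was at 87.6, 134, 148 and 125 CPM against 204, 174 and 227 CPM, with a logFC of 0.70 (SE 0.18) and adjusted p of 0.395 in edgeR and 0.0199 in DESeq2. The pseudogene H2bu1-ps (Hist3h2bb-ps), head to head with H2aw, was at 12.1, 17.2, 19.1 and 14.7 CPM against 24.8, 22.4 and 29.8 CPM, with a logFC of 0.70 (SE 0.17) and an adjusted p of 0.395 in edgeR and 0.0177 in DESeq2. None of the 3 overlapped between the groups, and they summed to 170 ± 36.9 CPM across the WT group (SD, n = 4). The Trpc1-/- group reached 279 ± 38.4 CPM (SD, n = 3), a ratio of 1.64, or 1.49 without WT replicate 1. The Hist1 sum had a ratio of 1.45 and the Hist2 sum of 1.28. Whether Hist3 differed from the other clusters was not tested, since these genes were chosen for their values. H2aw lies within Trim17, which reached 5.33 CPM in WT replicate 3 and at most 0.526 CPM elsewhere, and shares 30.6% of its windows.

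A few members are known to be made as polyadenylated mRNA in cells that no longer divide: H1f2, H2bc4, H2bc21, H2aw, H2bu2 and H4f16. Their summed level was 662, 1157, 1287 and 1121 CPM in WT and 1554, 1356 and 1617 CPM in Trpc1-/- samples, and 5 of the 6 had a logFC between 0.48 and 0.75. H4f16 (Hist4h4) was at 49.9, 81.2, 87.8 and 81.9 CPM against 88.9, 97.7 and 131 CPM, without overlap, with a logFC of 0.49 (SE 0.21, edgeR adjusted p = 0.499). H2bc4 (Hist1h2bc) was at 95.8, 184, 220 and 186 CPM against 256, 201 and 260 CPM, with overlap. H2bc21 (Hist2h2be) stood apart from all other members.

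H2bc21 was at 13.0, 10.8, 11.8 and 11.4 CPM in WT and at 11.9, 11.4 and 12.6 CPM in Trpc1-/- samples. Its logFC was 0.02 (SE 0.09), and its edgeR adjusted p 0.933. WT replicate 1, lowest in nearly all other members, was the highest sample. It is the member with the longest annotated end among those without a stem-loop, and it shares no 75-base window with another gene. Its neighbour H2ac20 (Hist2h2ac), which starts 239 bases away on the opposite strand, was at 66.4, 126, 149 and 113 CPM in WT and at 183, 146 and 188 CPM in Trpc1-/- samples, with a logFC of 0.60 (SE 0.25, edgeR adjusted p = 0.496). The H2ac20 promoter window printed above runs through the start of H2bc21, so both genes lie around the same stretch of DNA with the octamer, CCAAT and TATAAA motifs.

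Head-to-head pairs of this kind are a hallmark of the clusters. There were 15 pairs of members on opposite strands whose starts lay within 1000 bases, and 14 of them joined an H2A to an H2B gene, with starts between 173 and 306 bases apart. In the 13 such pairs with both genes tested, the logFC of the partners differed by a median of 0.05. Close values were common among members at large, with quartiles of 0.49 and 0.59, so this closeness is not particular to pairs. The difference was under 0.1 in 8 pairs and largest, at 0.58, in the pair of H2ac20 and H2bc21. Levels per kb of exon differed by less than 3-fold in 9 of the 14 pairs, as in H2bc13 and H2ac13 at 339 and 313 CPM per kb. They differed 59.1-fold between H2ac20 (267 CPM per kb) and H2bc21 (4.52 CPM per kb). The other extreme was the testis pair of H2bc1 (Hist1h2ba) and H2ac1 (Hist1h2aa), at 36.9 and 0.0864 CPM per kb. H2ac1 had between 1 and 6 counts in each sample, around the floor of 3 counts taken as detectable, so its ratio is not given. H2bc1 was at 6.83, 12.7, 15.3 and 13.6 CPM in WT and at 16.3, 14.8 and 19.6 CPM in Trpc1-/- samples, and 33.2% of its windows are shared with other H2B genes.

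**Figure D4:**
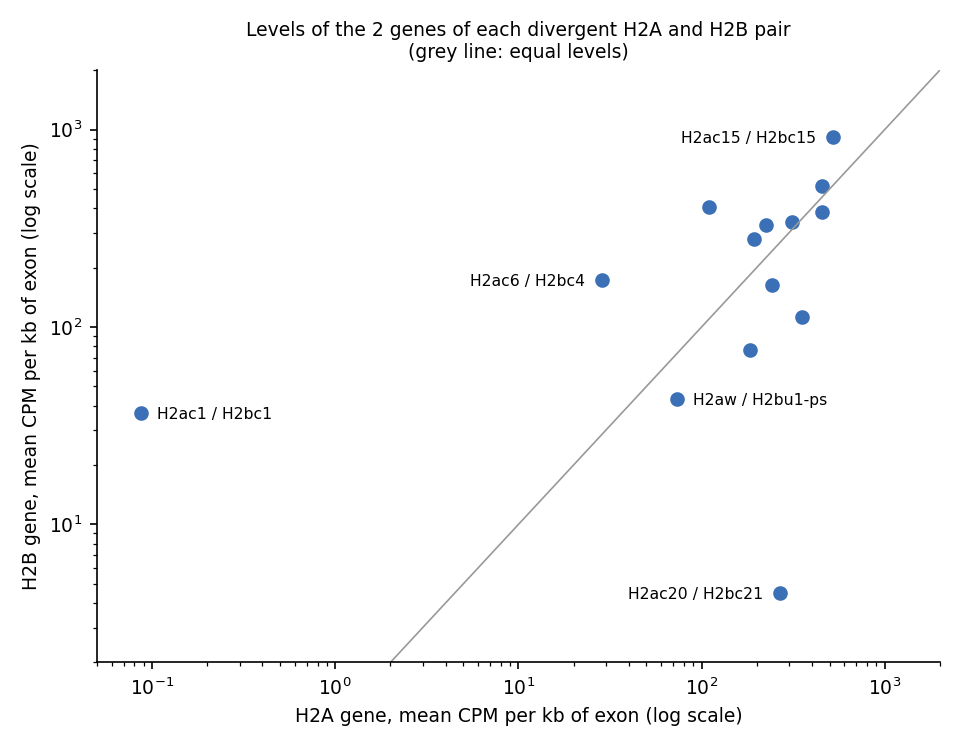
Mean level over the 7 samples of the H2A gene (x axis) and the H2B gene (y axis) of each of the 14 divergent pairs, in CPM per kb of exon on log scales, with a grey line at equal levels. Most pairs lie near the line, whereas H2ac20 with H2bc21 lies far below it and H2ac1 with H2bc1 far to the left.

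The only tested members with a negative logFC were H2ac18 (Hist2h2aa1) and H3c14 (Hist2h3c1), neighbours on chromosome 3 at 96245497 to 96246082 and 96246685 to 96248509. H2ac18 was at 0.021, 261, 52.1 and 190 CPM in WT and at 54.6, 48.3 and 61.5 CPM in Trpc1-/- samples, with a logFC of −1.20 (SE 1.39, edgeR adjusted p = 0.757). H3c14 was at 70.0, 180, 53.1 and 96.5 CPM against 72.2, 56.6 and 66.8 CPM, with a logFC of −0.61 (SE 0.39, edgeR adjusted p = 0.588). In both genes the WT values spanned the whole range of the Trpc1-/- values.

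The annotated gene Gm20634, at 96245554 to 96248509 on the same strand, spans nearly the whole of both, and 88.9% of the windows of H2ac18 and 100% of those of H3c14 are shared with other genes, Gm20634 the closest. It was at 163, 41.0, 462 and 178 CPM in WT and at 540, 408 and 553 CPM in Trpc1-/- samples, low where H2ac18 and H3c14 were high. Added together, the 3 genes were at 233, 482, 567 and 464 CPM in WT and at 666, 513 and 681 CPM in Trpc1-/- samples, a ratio of 1.42, which has the same order of samples as the H2A class. The division of counts among these 3 genes is therefore uncertain, and no difference between the genotypes is read from H2ac18 or H3c14 alone. Their copies H2ac19 and H3c15 (Hist2h3c2), on the opposite strand, showed no such scatter, with H3c15 at 74.8, 152, 175 and 149 CPM against 193, 171 and 216 CPM.

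**Figure D5:**
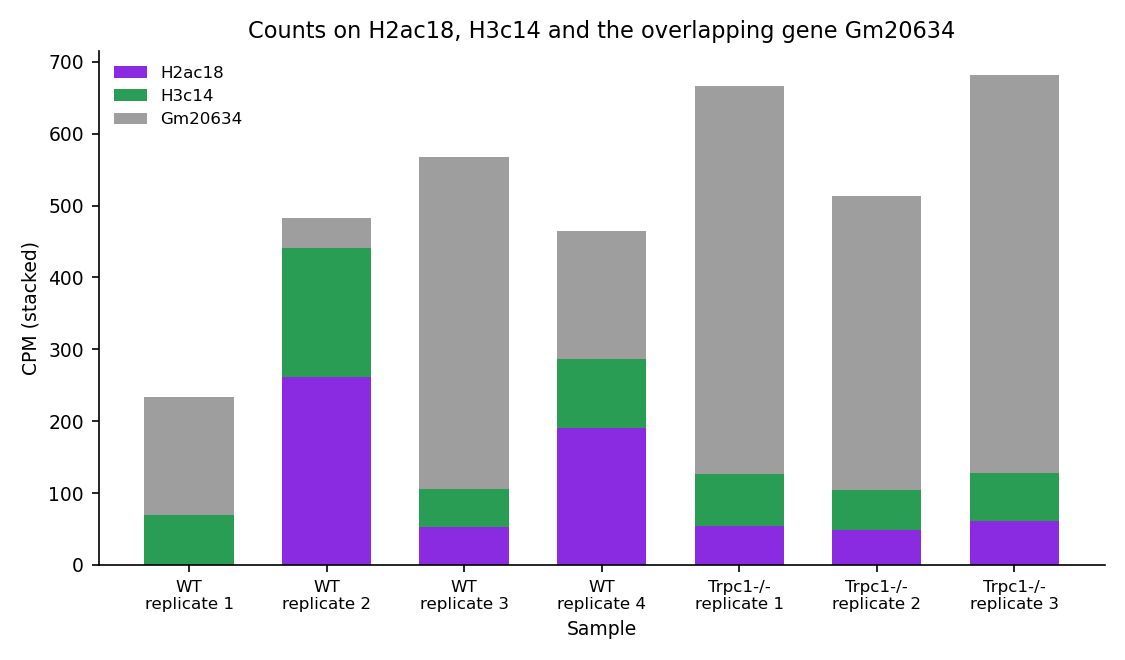
CPM (y axis, from 0) of H2ac18, H3c14 and the overlapping gene Gm20634, stacked for each sample (x axis). The parts trade places between samples, with H2ac18 nearly absent in WT replicate 1 and Gm20634 smallest in WT replicate 2, while the stacks run from 233 to 681 CPM.

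Variant histones, many of which are expressed outside S phase and mostly as polyadenylated mRNA, were set beside the members. Of 14 listed, 10 were tested, and 8 had a logFC above 0, against 48.1% of all tested genes. At an unadjusted p under 0.05, 3 were higher (against 4.51%) and 0 were lower (against 5.49%), and edgeR called 0. Their median logFC was 0.20. H2ax, the variant phosphorylated at DNA breaks, was at 126, 217, 248 and 203 CPM in WT and at 302, 240 and 318 CPM in Trpc1-/- samples, with a logFC of 0.53 (SE 0.22, edgeR adjusted p = 0.496). H3f3a, 1 of the genes for H3.3, was at 193, 402, 444 and 382 CPM against 501, 421 and 508 CPM, with overlap. H1f0, the linker histone of differentiated cells, was at 37.2, 51.1, 53.4 and 48.9 CPM against 40.1, 47.5 and 42.2 CPM, with a logFC of −0.14 (SE 0.13, edgeR adjusted p = 0.698). The ratio of summed members to summed variants was 7.59, 9.21, 9.52 and 9.10 in WT and 10.0, 10.1 and 11.1 in Trpc1-/- samples.

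The genes that make and handle histone mRNA and protein had smaller median logFC than the members, at 0.15 for mRNA processing, 0.09 for transcription and 0.17 for chaperones. Of 18 genes for histone mRNA processing, 14 had a logFC above 0, and 1 was higher at an unadjusted p under 0.05. Slbp, which encodes the protein that binds the stem-loop, was at 74.7, 100, 106 and 99.0 CPM in WT and at 133, 105 and 112 CPM in Trpc1-/- samples, with a logFC of 0.30 (SE 0.14, edgeR adjusted p = 0.516). Of 9 genes for the transcription of histone genes, 2 were higher at an unadjusted p under 0.05, Ccne1 and Ccne2, the cyclins E that with CDK2 activate NPAT. Ccne2 was at 42.8, 56.3, 57.0 and 49.9 CPM against 80.8, 61.3 and 67.8 CPM, without overlap, with a logFC of 0.44 (SE 0.13, edgeR adjusted p = 0.408). Npat itself, the coactivator of the clusters, was at 40.8, 46.6, 43.2 and 43.4 CPM against 49.7, 47.9 and 47.6 CPM, with a logFC of 0.15 (SE 0.07, edgeR adjusted p = 0.503). Of 18 histone chaperones, 4 were higher at that threshold, Asf1a, Nap1l1, Nasp and Npm1, and DESeq2 called Nap1l1. The lowest logFC among these 3 lists was −0.10, and 0 genes in them were lower at an unadjusted p under 0.05. Of all tested genes, 4.51% were higher and 5.49% lower at that threshold.

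Genes of S phase other than histones had the same direction. All 24 listed had a logFC above 0, with a median of 0.30. At an unadjusted p under 0.05, 9 were higher, against 4.51% of all tested genes, and 0 were called by edgeR. Among those that DESeq2 called were Rrm2 and Mki67, whose protein Ki67 is a marker of proliferation and not of S phase alone. Rrm2, a subunit of ribonucleotide reductase, was at 133, 157, 162 and 153 CPM in WT and at 200, 185 and 191 CPM in Trpc1-/- samples, with a logFC of 0.34 (SE 0.09) and an adjusted p of 0.395 in edgeR and 0.0186 in DESeq2. The sum over the list was 3577, 4340, 4400 and 4298 CPM in WT and 5553, 4806 and 4955 CPM in Trpc1-/- samples. The ratio of summed histone members to summed S phase genes was 1.88 in WT replicate 1, and 3.06, 3.41 and 3.02 in the other WT samples. It was 3.15, 3.12 and 3.87 in Trpc1-/- samples, so the genotypes overlapped in this ratio while WT replicate 1 stood apart.

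Of the markers of other cell types, the erythroid list had the direction of the histone sums, without overlap between genotypes. The chondrocyte and osteoblast lists had the opposite direction in their means. Their sums overlapped, since Trpc1-/- replicate 2 lay among the WT samples in both. The other lists overlapped as well. The 12 erythroid markers all had a logFC above 0, 10 at an unadjusted p under 0.05, with a summed level of 19371, 32760, 36514 and 29687 CPM in WT and 46792, 42110 and 57463 CPM in Trpc1-/- samples. Their ratio to the summed histone members lay between 2.29 and 3.00 in all 7 samples, WT replicate 1 included at 2.88. The 10 chondrocyte markers all had a logFC below 0, 3 at an unadjusted p under 0.05, with sums of 6263 to 6594 CPM in WT and of 3567, 6412 and 3834 CPM in Trpc1-/- samples. The 5 osteoblast markers all had a logFC below 0, with sums of 7280 to 13460 CPM against 5729 to 9988 CPM. Lists for granulocyte progenitors (621 to 1426 CPM in WT against 1010 to 1397 CPM), mature neutrophils (4726 to 15487 against 11440 to 15113 CPM), developing B cells (118 to 209 against 187 to 213 CPM) and megakaryocytes (354 to 705 against 525 to 666 CPM) held 0 genes at an unadjusted p under 0.05, and WT replicate 1 was lowest in each. Of all tested genes, 4.51% were higher and 5.49% lower at that threshold. No marker on these lists was at 0 in any sample. The part of these cell types in the histone result was not tested.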

How the data were processed

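Knee tissue of 4 WT and 3 Trpc1-/- mouse samples, grouped by the GEO labels (the study's methods give the numbers the other way round), was profiled by RNA-Seq with ribosomal RNA depleted. Per the labels and methods, the authors trimmed adapters with cutadapt 2.5, aligned to GRCm38 with HISAT2 2.1.0, and ran StringTie 2.0.3. The authors deposited estimated counts per gene, derived from coverage and not normalized. They were whole numbers, so rounding changed none. How the pipeline divided reads among near-identical copies is fixed in these values. All sample columns were used.

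Members were found through the GENCODE M21 symbol of the deposited gene ID. The members and lists were chosen with earlier results of these data known. The 16429 genes above 1 CPM in 2 or more samples were tested with edgeR 4.0.16 in R 4.3.3 (TMM, quasi-likelihood test, genotype alone, Benjamini-Hochberg over all tested genes, threshold 0.05). DESeq2 1.42.0 and limma 3.58.1 (voom) were alternatives, beside 2 other normalizations, 2 other filters, a replicate block and each sample left out. The fits were first tested on simulated data. Standard errors come from the F statistic. CPM use the TMM-scaled library. A floor of 3 counts was 0.0244 to 0.0631 CPM, which covers counting error only. Groups were summarised by mean ± SD, and no test was made on sums or lists. Replicates were separate pools of animals. Sequences came from GENCODE M21 and RefSeq.

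Named genes were Trpc1, the 3 members of each class with the highest mean CPM, the 10 with the smallest unadjusted p, the 3 with the largest logFC in each direction (only 2 were negative), tested members of Hist2 to Hist4, the listed polyadenylated and germline members, tested variant histones, and up to 3 genes of each other list by p. H2ac13, H2bc13, Trim17, Gm42743, Hbb-bs, Col2a1, Mki67, Nasp and Gm20634 were added after their values were seen. The values of 1 gene of the S phase list are not reported here, although the gene is part of the list's counts and sums.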

Additional observations from a re-analysis of the deposited data

Results flagged for a closer look

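Among the 106 sums and named genes examined, 5 had a WT sample far from the other 3, by Dixon's test of the gap over the range, and chance alone gives about 1 in 20. In all 5 the sample was WT replicate 1. It was the lowest for the summed S phase genes (3577 CPM, gap over range 0.876), the summed genes of histone mRNA processing (767 CPM, 0.838), the summed granulocyte progenitor markers (621 CPM, 0.848), Alpl, an osteoblast enzyme (124 CPM, 0.929), and the histone gene H2ac21 (7.97 CPM, 0.927). H2ac21 was the only one of the 68 tested members past that limit, against 11.7% of all tested genes, although WT replicate 1 was the lowest sample in 66 of them. The cause was not tested.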

How the results depend on the processing

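The number of members called by edgeR was 0 in the main analysis and in each of its alternatives, and 0 by limma-voom, while DESeq2 called 2, and 26, 4 and 2 without WT replicate 1, WT replicate 3 and Trpc1-/- replicate 2, against 1.79%, 5.42%, 0.816% and 2.23% of all tested genes (0 with each of the other samples left out). Members at an unadjusted p under 0.05 numbered 16 of 68 (against 10% of all tested genes in either direction), with 40 in DESeq2 (12.6%), 61 in DESeq2 with the replicate block (6.47%), 51 in the libraries of the 1300s alone (13.2%) and 2 of the 9 genes with a deposited Hist symbol. With each sample left out they numbered 4 to 52 in edgeR and 6 to 65 in DESeq2 (61, 36, 65 and 33 without WT replicates 1 to 4, against 17.2%, 8.28%, 13.3% and 12.4% of all tested genes, and 16, 42 and 6 without Trpc1-/- replicates 1 to 3, against 6.9%, 12.4% and 5.84%). In the 1300s, WT replicate 1 was 1 of only 2 WT samples. The 11 of 39 among members with under 50% shared windows, against 10% of all tested genes, is a smaller set by construction. The median logFC stayed above 0 throughout, between 0.34 and 0.82, as did the log2 ratio of the summed CPM, between 0.33 and 0.78 (0.44 with the total count as library size). The class ratios kept their sign as well. The related lists held 10 (variant histones), 18 (mRNA processing), 9 (transcription), 18 (chaperones) and 24 (S phase) tested genes. Those at an unadjusted p under 0.05 in edgeR numbered 19, against 10% of all tested genes in either direction. They numbered 5 to 26 when a sample was left out, against 4.35% to 16.9% of all tested genes. The labels give replicate numbers without saying whether they pair the samples. Deviations of same-numbered samples correlated at −0.35, −0.20 and −0.04, which cannot settle this with so few pairs. With the replicate block, fitted on replicates 1 to 3, 16 members (against 5.93% of all tested genes) and 2 genes of the related lists passed the unadjusted threshold. The logFC of H2ac18 turned from −1.20 to 0.99 in limma-voom and to 0.73 with the replicate block. With single samples left out, values near 0 changed sign, over ranges of −0.016 to 0.071 in H2bc21 (−0.014 without Trpc1-/- replicate 3), −0.108 to 0.073 in Macroh2a1 (−0.048 without Trpc1-/- replicate 1), −0.039 to 0.296 in Ms4a3, −0.069 to 0.259 in Ctsg, −0.125 to 0.231 in Elane, −0.001 to 0.314 in Pf4, −0.007 to 0.263 in Gp9 and −0.221 to 0.024 in Itga2b. The causes of these changes were not tested. The alternatives on shared windows, deposited symbols, Gm20634 and DESeq2 with samples left out or blocked were chosen after seeing the data.

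H2ac1 and H1f6 were the only members too low to be tested. Reads of near-identical copies limit single genes of H2A and H3 most.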
